A study of Mus musculus with 42 samples.

Results

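The monocarboxylate transporter genes Slc16a1, Slc16a3, Slc16a5, Slc16a6 and Slc16a10, 5 members of the Slc16 family, were followed in mouse CD4+ T cells stimulated through the T cell receptor. These 5 genes were taken from 19752 named genes of the arrays by symbol, each with 1 transcript cluster, around Slc16a5, whose level in conventional T cells (Tconv) in vivo stayed low to 72 h. The genes were chosen by measured values, those of the Tconv time course in vivo and the level of Slc16a5 in unstimulated Tconv, so these are given as a description without a test. By the gene table Slc16a3 overlaps Csnk1d, Slc16a5 overlaps Gm11695, Slc16a6 overlaps Arsg and Gm45916, and Slc16a10 overlaps Gm25613, so signal from these neighbours cannot be told apart. Of 13 family genes with a named cluster these are 5, and all 5 passed the filter on dim genes. Slc16a5 and Slc16a10 passed through few arrays, being above the array median on 5 and 6 of 42.

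All mice were of the NOD strain, which develops autoimmune diabetes, and carried the Foxp3-IRES-GFP reporter, in which green fluorescent protein (GFP) marks cells that express Foxp3, the transcription factor of regulatory T cells (Treg). KT3, an antibody against CD3, was injected into female mice of 8 weeks (in vivo), or splenocytes were cultured with 1.25 µg/ml of it (in culture). Tconv and Treg were sorted from spleen without stimulation (0 h) and 2, 8, 24 and 72 h after it, in duplicate arrays (2 a group), and 1 array per cell type came 24 h after control IgG in vivo. The 42 arrays form 22 groups. No later group in culture went without KT3, so effects of culture itself cannot be told apart there from those of KT3. In culture the arrays numbered 1 came from female mice of 9 weeks and those numbered 2 from male mice of 14 weeks, so number, sex and age cannot be told apart there. In vivo arrays were labelled as single sorted (most of number 1) or double sorted (most of number 2), and the labels do not say if a group's arrays are of different mice, so the p-values there may measure technical spread only. Arrays in culture had no such sort label. Setting thus goes with age, sort label and in part sex, which cannot be told apart from it in comparisons between settings.

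The sort took CD4+ cells negative for B220, CD8a, CD11b and CD11c. All 5 T cell markers (Cd3e, Cd3d, Cd3g, Cd4, Cd5) lay above the array median on every array. The Treg markers Foxp3, Il2ra, Ctla4 and Ikzf2 averaged 10.42 to 11.77 in log2 intensity in cultured Treg and 6.58 to 8.05 in cultured Tconv, although the labels print a GFP-negative gate for the cultured Treg. In vivo, arrays numbered 1 carried more signal from other cells: 5 neutrophil markers averaged 6.60 to 8.50 in Treg on number 1 and 5.68 to 5.98 on number 2, and 4 B cell markers averaged 6.89 to 8.12 and 5.62 to 5.98. The 3 NK cell markers were never above the array median. Array number 1 of unstimulated Tconv in culture stood apart, and its values spread less widely (interquartile range 1.645 in log2, where the other arrays had 2.097 to 3.208). Without it, genes called in Tconv in culture went from 3271 to 619 at 2 h, from 2350 to 1276 at 8 h, from 3336 to 160 at 24 h and from 938 to 134 at 72 h, so the results on cultured Tconv are also given without it. That leaves 1 array at 0 h, taken to vary like the other groups.

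Monocarboxylate transporters carry lactate, pyruvate and ketone bodies across membranes, in the best known members together with a proton. Slc16a1 encodes MCT1, which moves lactate in either direction, and Slc16a3 encodes MCT4, known for lactate export from glycolytic cells. Activated T cells take up glucose and release lactate, and both carriers need the membrane protein basigin or a relative to reach the cell surface. Slc16a5 encodes a carrier with few known substrates, Slc16a6 a carrier linked to ketone bodies and taurine, and Slc16a10 the aromatic amino acid carrier TAT1.

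The 250 bases before the RefSeq start (build GRCm38.p6) are shown for Slc16a1 and Slc16a3, the lactate carriers whose changes after stimulation passed the test. Matches to CACGTG (the E-box, a motif that Myc can bind), ACGTG and GCGTG (core letters of the hypoxia response element), searched on both strands, are in capitals. ACGTG lies within CACGTG where both match. The table of promoters held 3 of the 5 genes.
Slc16a1, chr3:104638414-104638663, plus strand: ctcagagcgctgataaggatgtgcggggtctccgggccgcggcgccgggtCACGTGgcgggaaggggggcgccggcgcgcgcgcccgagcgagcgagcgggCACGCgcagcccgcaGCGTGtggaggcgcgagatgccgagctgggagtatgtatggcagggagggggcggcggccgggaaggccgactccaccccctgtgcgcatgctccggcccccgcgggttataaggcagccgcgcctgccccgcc
Slc16a3, chr11:120948817-120949066, plus strand: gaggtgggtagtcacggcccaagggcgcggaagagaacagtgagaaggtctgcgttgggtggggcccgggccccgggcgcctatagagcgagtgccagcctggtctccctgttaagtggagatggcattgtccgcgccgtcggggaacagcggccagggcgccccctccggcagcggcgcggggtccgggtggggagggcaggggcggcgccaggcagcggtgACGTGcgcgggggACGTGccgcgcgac
Slc16a1 holds CACGTG 200 bases before the start, and GCGTG 149 bases before it on the minus and 134 on the plus strand. Slc16a3 holds ACGTG 27 and 14 bases before the start and no CACGTG. Among 32851 promoter windows of the same length 6.0% held CACGTG, 16.6% ACGTG and 28.2% GCGTG. The GC content was 76.4% for Slc16a1 and 73.6% for Slc16a3, against a median of 52.4%. A match is a description of letters and not of binding.

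Levels are log2 intensities as deposited by the authors, and differences are log2 differences ± SE, n = 2 arrays a group unless stated, from 1 limma fit over all arrays. Where an array is left out its group has n = 1, and the spread comes from the other groups. Called means a Benjamini-Hochberg adjusted p under 0.05 over 12425 genes. Overlap between arrays of 2 groups is a description, and the share of all genes without overlap is not given. Since probes differ between genes, a level of 1 gene is not set against that of another. In such sorted bulk samples fewer cells with a transcript and less of it per cell cannot be told apart.

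**Figure D1:**
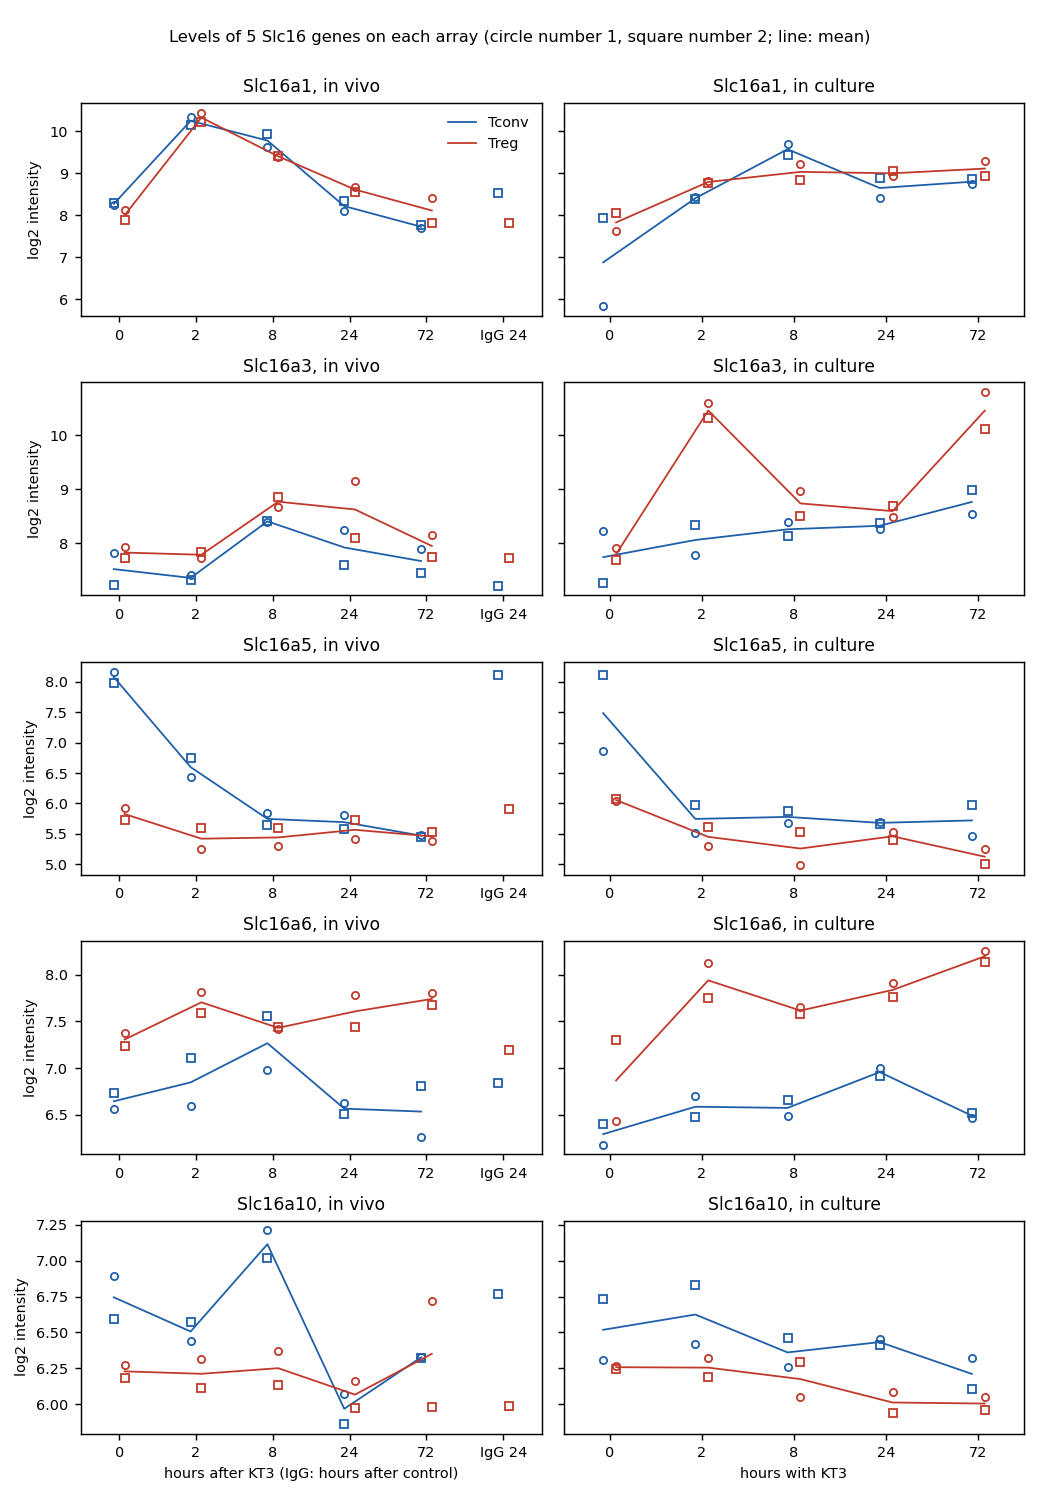
Log2 intensity of each gene (rows) against hours, in vivo (left) and in culture (right), with Tconv in blue and Treg in red, circles for array number 1, squares for number 2 and lines through the means. Slc16a1 peaks at 2 h in vivo, Slc16a3 at 2 and 72 h in cultured Treg, and Slc16a5 is highest in unstimulated and IgG-treated Tconv, at 6.86 to 8.17.

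Slc16a1 (MCT1) rose at 2 and 8 h in Treg in vivo, at 8 and 72 h in cultured Treg and at 8 h in cultured Tconv. In Treg in vivo its level was 8.11 and 7.88 at 0 h, 10.43 and 10.21 at 2 h, 9.39 and 9.41 at 8 h, 8.67 and 8.54 at 24 h, and 8.40 and 7.82 at 72 h. Both arrays at 2 h and at 8 h lay above both at 0 h, and those at 72 h overlapped with them. The rise was 2.33 ± 0.36 at 2 h (5.02-fold, limma adjusted p = 8.78e-05) and 1.40 ± 0.36 at 8 h (2.64-fold, adjusted p = 0.0126, or 0.0566 after quantile normalization). At 24 h the difference was 0.61 ± 0.36 (adjusted p = 0.981) and at 72 h 0.11 ± 0.36 (adjusted p = 1). It was 1.29 at 8 h without 0 h number 2 (adjusted p = 0.126), 1.41 without 8 h number 1 (0.0852) and 1.39 without 8 h number 2 (0.0709), each time missing the call. Over number 2 arrays alone, which carried less signal from other cells, the difference was as large, 2.33 at 2 h and 1.53 at 8 h, though with adjusted p = 0.163 and 0.485 from limma.

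Tconv in vivo, described only, had Slc16a1 levels of 8.25 and 8.28 at 0 h, 10.34 and 10.14 at 2 h, 9.62 and 9.92 at 8 h, 8.10 and 8.33 at 24 h, and 7.68 and 7.76 at 72 h. The mean differences from 0 h were 1.98, 1.51, -0.05 and -0.54, so the peak fell at the same time as in Treg and the 72 h arrays lay below both unstimulated ones. One array after IgG read 8.54 in Tconv and 7.80 in Treg.

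In cultured Treg, Slc16a1 read 7.61 and 8.04 at 0 h, 8.82 and 8.75 at 2 h, 9.22 and 8.83 at 8 h, 8.94 and 9.05 at 24 h, and 9.29 and 8.92 at 72 h. Every stimulated array lay above both unstimulated ones. The rise passed the test at 8 h (1.20 ± 0.36, limma adjusted p = 0.0463) and at 72 h (1.28 ± 0.36, adjusted p = 0.0218), while 2 h gave 0.96 ± 0.36 (adjusted p = 0.131) and 24 h 1.17 ± 0.36 (adjusted p = 0.0521). With array number, which in culture goes with sex and age, as a block the 24 h rise was called (adjusted p = 0.0398), as it was under median centring (1.32, 0.0416), an offset of 16 (1.12, 0.0369) and a filter at 6 arrays (0.0488). Leaving out 0 h number 1 gave 0.99 at 8 h (adjusted p = 0.485) and 1.07 at 72 h (0.215). Without 8 h number 1 or number 2 the 8 h value was 1.01 (0.466) or 1.40 (0.0813), and without 72 h number 1 the 72 h value was 1.10 (0.248). Quantile normalization gave 0.94 and 1.05 (0.264 and 0.147), a separate fit per setting left 1.20 and 1.28 without a call (0.225 and 0.129), and no filter on dim genes gave 0.0637 at 8 h.

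Cultured Tconv had Slc16a1 at 5.82 and 7.92 at 0 h, 8.42 and 8.38 at 2 h, 9.69 and 9.44 at 8 h, 8.42 and 8.87 at 24 h, and 8.73 and 8.86 at 72 h. The first of these, on the array that stood apart, was the lowest Slc16a1 level of the 42. With it the rise was 1.53, 2.69, 1.77 and 1.92 (each ± 0.36) at 2, 8, 24 and 72 h, with limma adjusted p = 0.00429, 1.19e-05, 0.0026 and 0.00191 (0.0505 at 2 h in a separate fit per setting). Without it the 8 h rise kept its call at 1.64 (adjusted p = 8.99e-05), and 2 h gave 0.48 (0.346), 24 h 0.72 (0.192) and 72 h 0.87 (0.1). Thus 1 of 4 calls was kept against the 1 array left at 0 h.

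**Figure D2:**
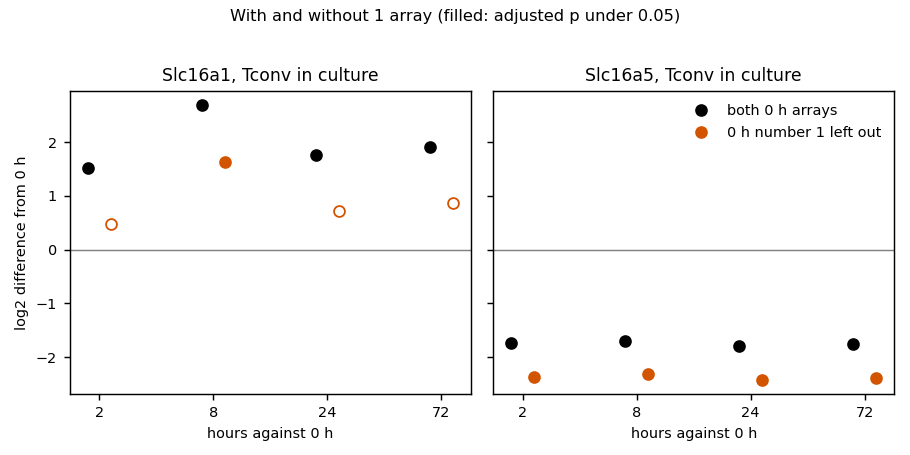
Log2 difference from 0 h (vertical axis) by hours (horizontal axis) for Slc16a1 and Slc16a5 in cultured Tconv, with both unstimulated arrays (black) and without number 1 (orange); filled points have an adjusted p under 0.05. Slc16a1 keeps its call at 8 h only, at 1.64, while Slc16a5 lies lower without the array, at -2.32 to -2.42.

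The Slc16a1 response of Treg differed between mouse and culture over the 4 times together (limma moderated F-test, adjusted p = 0.0106). These settings also differed in age, sort label and in part sex. The in vivo minus culture difference of responses was 1.36 ± 0.51 at 2 h, 0.20 at 8 h, -0.56 at 24 h and -1.17 ± 0.51 at 72 h, so the response was larger in vivo early and larger in culture late. This call was lost under quantile normalization (adjusted p = 0.0637), without Treg in vivo 2 h number 1 (0.0578) and with number 2 arrays alone in vivo (0.468). Between Treg and Tconv in culture the Slc16a1 response did not pass the test of a difference (adjusted p = 0.438, or 0.108 without the array that stood apart).

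Slc16a3 (MCT4) rose in cultured Treg at 2 h and again at 72 h. Its levels there were 7.91 and 7.69 at 0 h, 10.59 and 10.33 at 2 h, 8.97 and 8.51 at 8 h, 8.50 and 8.70 at 24 h, and 10.80 and 10.12 at 72 h. The 4 arrays of 2 and 72 h lay above every other Slc16a3 value of the 42, whose highest was 9.15. The difference from 0 h was 2.66 ± 0.33 at 2 h (6.32-fold, limma adjusted p = 3.2e-06) and 2.66 ± 0.33 at 72 h (6.31-fold, adjusted p = 2.09e-06). At 8 and 24 h it was 0.94 ± 0.33 (adjusted p = 0.0985) and 0.80 ± 0.33 (adjusted p = 0.137), with no overlap with 0 h. In the same arrays 4 macrophage markers (Lyz2, Csf1r, Adgre1, Cd68) averaged 6.78 and 6.52 at 0 h, 6.41 and 6.22 at 2 h, 5.94 and 5.64 at 8 h, 6.08 and 6.0 at 24 h, and 6.40 and 6.38 at 72 h, with 1 or 2 of 4 above the array median and Adgre1 above it on none of the 42 arrays. After stimulation they were thus higher at 2 and 72 h, where Slc16a3 was high, than at 8 and 24 h, and they were highest at 0 h, where Slc16a3 was low. The 2 plasma cell markers averaged 5.65 and 5.73, 5.86 and 6.47, 5.31 and 5.85, 4.93 and 4.99, and 5.56 and 6.26 at these times, likewise higher at 2 and 72 h than at 8 and 24 h within each array number, with at most 1 of 2 above the array median. The T cell markers, too, averaged 11.24 to 11.44 at 2 and 72 h and 10.85 to 11.13 at 8 and 24 h. In cultured Tconv the macrophage markers averaged 6.33 and 6.15 at 0 h, 6.14 and 6.12 at 2 h, and 5.71 and 5.75 at 8 h. There they were at 5.82 and 6.16 at 24 h and at 6.47 and 6.49 at 72 h. The sort took cells negative for CD11b, and the part of other cells in the Slc16a3 level was not tested.

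In cultured Tconv the levels of Slc16a3 were 8.23 and 7.26 at 0 h, 7.79 and 8.34 at 2 h, 8.39 and 8.13 at 8 h, 8.27 and 8.38 at 24 h, and 8.54 and 9.00 at 72 h. The arrays at 2 and 8 h overlapped with 0 h. None of the 4 differences passed, the highest being 1.02 ± 0.33 at 72 h (limma adjusted p = 0.0521). The 72 h rise was called with array number as a block (adjusted p = 0.0266), with a sort term (0.0454), with a filter at 6 arrays (0.0488) and under median centring (1.17, 0.0265). Without the array that stood apart it was 1.51 and called (0.0353), and 2, 8 and 24 h gave 0.80, 1.00 and 1.06 (0.265, 0.0852 and 0.199).

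The response of Slc16a3 differed between Treg and Tconv in culture (limma moderated F-test, adjusted p = 0.00596). Treg exceeded Tconv by 2.34 ± 0.46 at 2 h and 1.64 ± 0.46 at 72 h, against 0.42 at 8 h and 0.22 at 24 h. The call was kept without the array that stood apart (adjusted p = 0.00492), and leaving out any other culture array gave adjusted p between 0.000227 and 0.0317.

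In Treg in vivo no such peaks were seen. Slc16a3 read 7.93 and 7.73 at 0 h, 7.73 and 7.85 at 2 h, 8.68 and 8.86 at 8 h, 9.15 and 8.11 at 24 h, and 8.16 and 7.75 at 72 h. The arrays at 8 and 24 h lay above those at 0 h, with 0.94 ± 0.33 at 8 h (limma adjusted p = 0.0697) and 0.80 ± 0.33 at 24 h (adjusted p = 0.598), neither of them called. The 8 h rise was called with array number as a block (adjusted p = 0.0352) and when the Tconv array that stood apart, which shares in the fit's spread, was left out (0.0308). Number 1 at 24 h, the higher, also had 4 of 5 neutrophil markers above the array median (mean 7.19) and number 2 had 0 of 5 (mean 5.68), while 4 macrophage markers averaged 6.49 and 5.58. Their part in the Slc16a3 level was not tested.

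The Slc16a3 response of Treg thus differed between the animal and culture (limma moderated F-test, adjusted p = 3e-05). Age, sort label and in part sex differed between these settings too. The in vivo response was below that in culture by a difference of -2.70 ± 0.46 at 2 h and -2.53 ± 0.46 at 72 h, and by 0 at 8 and at 24 h to 2 decimals. With number 2 arrays alone in vivo the adjusted p was 0.0152. Tconv in vivo, described only, read 7.82 and 7.23 at 0 h, 7.41 and 7.31 at 2 h, 8.40 and 8.42 at 8 h, 8.26 and 7.59 at 24 h, and 7.89 and 7.46 at 72 h. The arrays at 8 h lay above both at 0 h, with a mean difference of 0.88, and those of the other times overlapped with 0 h. After IgG the level was 7.22 in Tconv and 7.73 in Treg.

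Slc16a5, a carrier with few known substrates, was highest in unstimulated and IgG-treated Tconv and lower in Treg and in every stimulated group. In Tconv in vivo, the values that chose it, it read 8.17 and 7.98 at 0 h, 6.44 and 6.75 at 2 h, 5.85 and 5.65 at 8 h, 5.81 and 5.58 at 24 h, and 5.49 and 5.46 at 72 h. No stimulated array reached an unstimulated one, and the mean difference was -1.48, -2.33, -2.38 and -2.60, that is 35.9%, 19.9%, 19.2% and 16.5% of the 0 h level. At 24 and 72 h it had the lowest of 12425 differences, which follows from how it was chosen. The 1 Tconv array after IgG read 8.11, near the unstimulated ones, and the Tconv arrays 24 h after KT3 were at 5.81 and 5.58.

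In cultured Tconv, arrays that the choice of members did not use, Slc16a5 fell at all 4 times. Levels were 6.86 and 8.10 at 0 h, 5.52 and 5.98 at 2 h, 5.68 and 5.88 at 8 h, 5.69 and 5.67 at 24 h, and 5.46 and 5.98 at 72 h. All 8 stimulated arrays lay below both unstimulated ones, of which the lower is the array that stood apart. The level fell by 1.74, 1.70, 1.80 and 1.76 (each ± 0.27) on the log2 scale, to 30.0%, 30.7%, 28.7% and 29.5% of 0 h, with limma adjusted p = 9.29e-05, 9.34e-05, 0.000151 and 0.000285. Slc16a5 passed the filter on dim genes only through 5 Tconv arrays, of which number 2 of 0 h was the only one in culture. Without that filter the limma adjusted p were 0.000109, 0.00011, 0.000172 and 0.000335. Without the array that stood apart the differences were -2.36, -2.32, -2.42 and -2.38, and without the other unstimulated array -1.11, -1.08, -1.18 and -1.14, and all 4 calls held either way, with adjusted p of at most 0.0012.

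In Treg the level of Slc16a5 was low before stimulation. In vivo they read 5.92 and 5.73 at 0 h, 5.25 and 5.59 at 2 h, 5.30 and 5.59 at 8 h, 5.41 and 5.72 at 24 h, and 5.38 and 5.54 at 72 h. Each stimulated array lay below both unstimulated ones, yet the differences of -0.40, -0.38, -0.26 and -0.37 (each ± 0.27) did not pass the test (limma adjusted p = 0.56, 0.511, 0.999 and 1). In culture Treg read 6.03 and 6.08 at 0 h, 5.29 and 5.61 at 2 h, 4.99 and 5.53 at 8 h, 5.53 and 5.40 at 24 h, and 5.25 and 5.01 at 72 h. There the level fell by 0.93 ± 0.27 at 72 h (adjusted p = 0.0299), a call lost without either 0 h array (-0.95 and -0.91, adjusted p = 0.131 and 0.0782) and without either 72 h array (-1.05 and -0.81, 0.0942 and 0.176). It was also lost under quantile normalization (-0.74, 0.143), median centring (-0.83, 0.0615), an offset of 16 (-0.70, 0.0603) and a separate fit per setting (-0.93, 0.139). The other times gave -0.60, -0.80 and -0.60 (adjusted p = 0.245, 0.0953 and 0.178), of which 8 h was called with array number as a block (0.0471).

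**Figure D3:**
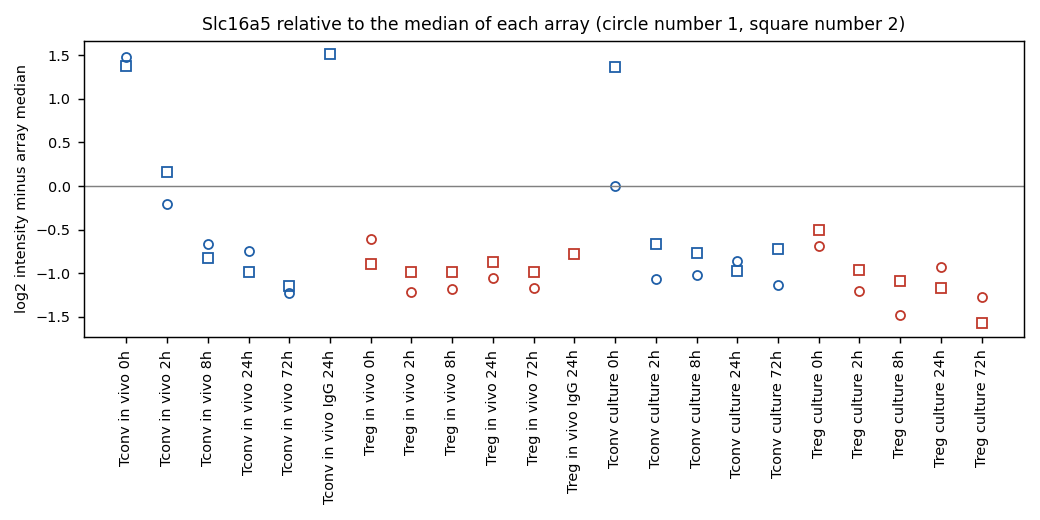
Slc16a5 log2 intensity minus the median of its array (vertical axis) for each array by group (horizontal axis), Tconv in blue and Treg in red, circles for number 1 and squares for number 2. It lies above 0 on 5 arrays, which are the Tconv arrays of 0 h in vivo, of IgG, number 2 of 2 h in vivo and number 2 of 0 h in culture.

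Before stimulation in culture Slc16a5 was lower in Treg than in Tconv by a difference of -1.43 ± 0.27 (37.2% of the Tconv level, limma adjusted p = 0.00184), with no overlap. It was -2.05 without the array that stood apart (adjusted p = 1.95e-05) and -0.80 without the other Tconv array (adjusted p = 0.00934). In vivo the same difference, used in choosing the gene, was -2.25, or 21.1% of Tconv. Slc16a5 passed the filter on dim genes only through Tconv arrays, among them number 2 of 0 h in culture. The call in culture thus rests on a gene kept through the group where it is high, and with a filter at 6 arrays it was not tested. Slc16a5 lay below the array median on every Treg array, at 6.03 and 6.08 at 0 h in culture, and stimulated cultured Tconv came down to 5.46 to 5.98. Treg thus had less room to fall, and a difference in response cannot be told apart from that in level at 0 h. Whether the responses of the 2 cell types in culture differed also depended on 1 array. Treg minus Tconv gave 1.13, 0.91, 1.21 and 0.83 (each ± 0.39) at 2, 8, 24 and 72 h with adjusted p = 0.263, and adjusted p = 0.00472 without the array that stood apart. The Treg responses in vivo and in culture differed by 0.20 to 0.56 and did not pass (adjusted p = 0.977).

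In the order of Slc16a5 means, Tconv after IgG (8.11) and Tconv at 0 h in vivo (8.07) came first, then Tconv at 0 h in culture (7.48) and Tconv at 2 h in vivo (6.60). Next was Treg at 0 h in culture (6.06), and the others followed in small steps down to Treg at 72 h in culture (5.13). The first 2 differ by 0.03, less than the spread of 0 h arrays, and from the fifth place on neighbours differed by at most 0.16, so that order among them is not resolved. Slc16a1 means ran from 10.32 (Treg 2 h in vivo) and 10.24 (Tconv 2 h in vivo), whose arrays overlap, to 6.87 (Tconv 0 h in culture). The Slc16a3 order began with Treg at 2 h and at 72 h in culture, both at 10.46, and the third group was 1.69 lower.

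Slc16a6, a carrier linked to ketone bodies, rose in cultured Treg. There it read 6.43 and 7.30 at 0 h, 8.13 and 7.75 at 2 h, 7.65 and 7.58 at 8 h, 7.91 and 7.76 at 24 h, and 8.26 and 8.14 at 72 h. All stimulated arrays exceeded both at 0 h, which themselves lay 0.87 apart. The rise was called at 2 h (1.07 ± 0.24, limma adjusted p = 0.00535), 24 h (0.97 ± 0.24, adjusted p = 0.0147) and 72 h (1.33 ± 0.24, adjusted p = 0.00034), and 8 h gave 0.75 ± 0.24 (adjusted p = 0.0653). Without 0 h number 1 the values at 2 and 24 h were 0.64 and 0.54 (adjusted p = 0.317 and 0.51), without 2 h number 1 0.88 (0.113), and without 24 h number 1 or number 2 0.89 or 1.05 (0.165 and 0.0629). The 72 h call was kept in each of these. A separate fit per setting gave adjusted p = 0.0528 at 24 h.

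In cultured Tconv, Slc16a6 read 6.18 and 6.40 at 0 h, and over the later 8 arrays between 6.46 and 7.0. The 24 h arrays, 7.0 and 6.92, were the highest and gave a rise of 0.67 ± 0.24 (limma adjusted p = 0.0421). This was 0.55 (adjusted p = 0.491) without the array that stood apart, 0.62 (0.176) without 24 h number 1 and 0.71 (0.0981) without 24 h number 2, and a separate fit per setting gave adjusted p = 0.091. At 0 h Treg exceeded Tconv by 0.66 ± 0.24 in vivo (adjusted p = 0.195) and by 0.58 ± 0.24 in culture (adjusted p = 0.086), without overlap and without passing the test. The culture value was 0.46 without the array that stood apart (adjusted p = 0.788) and 0.80 under quantile normalization, where it was called (0.0272).

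In vivo, Treg had Slc16a6 at 7.38 and 7.24 at 0 h and between 7.42 and 7.82 later, and the differences of 0.40, 0.13, 0.30 and 0.44 were not called (limma adjusted p of at least 0.476). Tconv in vivo, described only, read 6.56 and 6.73 at 0 h and 6.98 and 7.56 at 8 h, and the other times overlapped with 0 h. Each in vivo Treg mean from 0 to 72 h lay above each in vivo Tconv mean, the closest being 7.31 in Treg at 0 h and 7.27 in Tconv at 8 h, whose arrays overlap. After IgG the level was 7.19 in Treg, below that Tconv mean at 8 h, and 6.84 in Tconv. The response passed neither the test between cell types in culture (adjusted p = 0.223, or 0.154 without the array that stood apart) nor that between settings in Treg (adjusted p = 0.43).

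Slc16a10, the aromatic amino acid carrier, had no call in any tested comparison. Its levels spanned 5.86 to 7.21 over the 42 arrays. At 0 h the Treg minus Tconv difference was -0.52 ± 0.20 in vivo (limma adjusted p = 0.27) and -0.26 ± 0.20 in culture (adjusted p = 0.315). In Treg the means, that of the 1 IgG array included, lay between 5.99 and 6.35, and the 8 differences from 0 h between -0.25 and 0.12 (each ± 0.20; limma adjusted p of at least 0.421). Cultured Tconv gave 0.11, -0.16, -0.09 and -0.31 with all 4 times overlapping with 0 h. Without the array that stood apart these were -0.11, -0.37, -0.30 and -0.52, so the sign at 2 h turned, and none was called (limma adjusted p of at least 0.408). Tconv in vivo, described only, read 6.89 and 6.59 at 0 h, 7.21 and 7.02 at 8 h, and 6.07 and 5.86 at 24 h, the lowest group of all 22. In vivo, number 1 exceeded number 2 for Slc16a10 in 9 of 10 pairs of arrays (median 0.20), on the arrays that carry more signal from other cells, and its part in these levels was not tested.

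**Figure D4:**
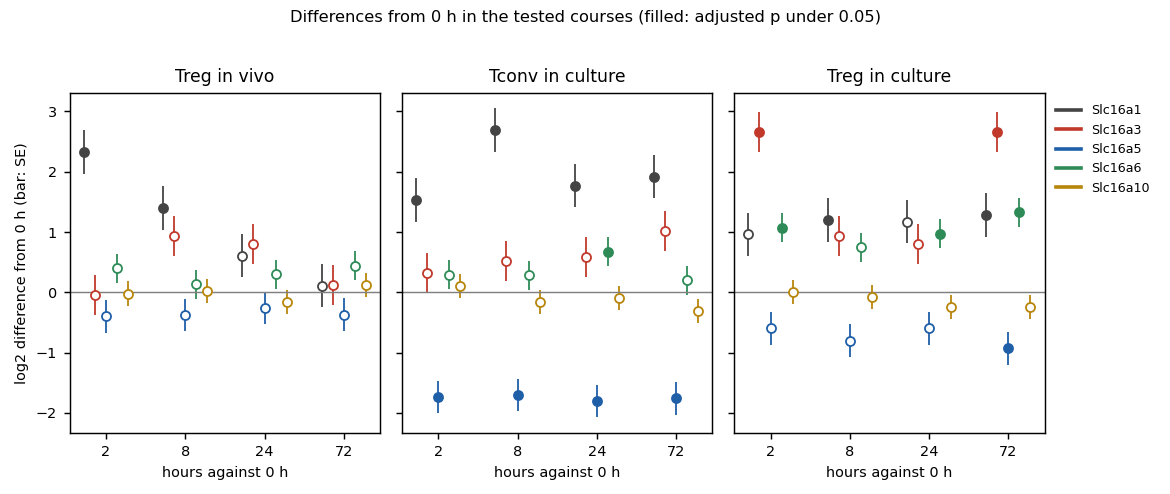
Log2 difference from 0 h with its SE (vertical axis) by hours (horizontal axis) for the 5 genes in the 3 courses that were tested; filled points have an adjusted p under 0.05. Slc16a5 lies near -1.7 to -1.8 throughout cultured Tconv, and Slc16a3 at 2.66 at 2 and 72 h in cultured Treg.

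Calls among the 5 genes are set against all 12425 genes as follows, in either direction by limma. In Treg in vivo 1 of 5 was called at 2 h and 1 of 5 at 8 h, where 6.45% and 9.67% of all genes were called. At 24 and 72 h 0 of 5 were called, against 0.483% and 0.0241%. There 1 and 0 of 5 had an unadjusted p under 0.05, against 5.99% and 2.22% of all genes. In cultured Tconv 2, 2, 3 and 2 of 5 were called at 2, 8, 24 and 72 h, against 26.3%, 18.9%, 26.8% and 7.55% of all genes. Without the array that stood apart these were 1, 2, 1 and 2 of 5, against 4.98%, 10.3%, 1.29% and 1.08%. Slc16a1 was then not called at 2, 24 and 72 h nor Slc16a6 at 24 h, and Slc16a3 was called at 72 h. In cultured Treg 2, 1, 1 and 4 of 5 were called, against 5.64%, 5.61%, 5.95% and 9.11%. Though none of these comparisons contains the array that stood apart, the fit shares its spread, and without it they had 3, 4, 2 and 4 of 5 called, against 11%, 11.3%, 14.2% and 16.4% of all genes.

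Between Treg and Tconv at 0 h in culture 1 of 5 was called, Slc16a5, against 11.2%, and without the array that stood apart again Slc16a5 alone, against 1.59%. Slc16a5 passed the filter on dim genes only through Tconv arrays, the higher group of this comparison. In vivo, over the 4 genes without Slc16a5, limma called 0, against 3.10%, and 2 had an unadjusted p under 0.05, against 10.6%. The F-test of responses between cell types in culture called 1 of 5, against 3.65% (2 of 5 without the array that stood apart, against 7.35%), and that between settings in Treg 2 of 5, against 10.9%. For KT3 against IgG at 24 h in Treg, with 1 IgG array taken to vary like the other groups, limma called 0 of 5, against 0.274%, and 1 had an unadjusted p under 0.05, against 13.6%. That 1 is Slc16a3, named after its value was seen, at 0.90 ± 0.40. Its KT3 arrays read 9.15 (number 1) and 8.11 (number 2), and the IgG array, of number 2, read 7.73. Both KT3 arrays were labelled single sorted and the IgG array double sorted, so treatment and sort cannot be told apart in this comparison. IgG against 0 h in Treg gave 0 of 5 calls, 0 of 5 at an unadjusted p under 0.05, and 0% of all genes (0 called and 198 of 12425, or 1.59%, at an unadjusted p under 0.05).

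The lists of linked genes are likewise set against all 12425 genes. In Treg in vivo limma called 5.04% of all genes higher at 2 h and 6.36% at 8 h, and 1.42% and 3.31% lower. In cultured Treg 4.02%, 4.52%, 5.01% and 7.34% were called higher at 2, 8, 24 and 72 h, and 1.63%, 1.09%, 0.934% and 1.77% lower. In cultured Tconv 19.5%, 15.7%, 19.4% and 6.65% were called higher, or 2.77%, 4.70%, 0.934% and 0.732% without the array that stood apart, and 6.80%, 3.22%, 7.48% and 0.901% lower. At 8 h without the array that stood apart, more of all genes were called lower than higher in cultured Tconv. The lower shares given for cultured Tconv thus do not apply to falls reported without that array. The lists are short, and no list was tested against these shares.

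The proteins that bring MCT1 and MCT4 to the membrane, basigin (Bsg), embigin (Emb) and neuroplastin (Nptn), were all tested. In cultured Tconv 3, 2, 2 and 1 of 3 rose at 2, 8, 24 and 72 h, with list medians of 1.69, 1.01, 0.86 and 0.84 against 0.06, 0.02, 0.23 and 0.15 over all genes. Bsg rose by 1.01 ± 0.22 at 8 h (limma adjusted p = 0.002) and Emb by 1.88 ± 0.41 at 2 h (adjusted p = 0.00265). Without the array that stood apart, 1 of 3 rose at 2 h, which was Nptn (0.82 ± 0.24, adjusted p = 0.0494), and 0 at the later times. In cultured Treg Emb rose at 2 h (1.53 ± 0.41, adjusted p = 0.0237), and in Treg in vivo 0 of 3 were called at any time, with 2 at an unadjusted p under 0.05 at 8 h and 0 at the other times.

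Among 11 tested enzymes and carriers of lactate and pyruvate, Ldha, the lactate dehydrogenase subunit of lactate production, rose in Treg in vivo at 2 h (0.90 ± 0.22, limma adjusted p = 0.00886) and 8 h (1.01 ± 0.22, adjusted p = 0.00299). Pkm, a pyruvate kinase, rose there at 8 h (1.26 ± 0.22, adjusted p = 0.000485), and Pdk2, an inhibitor of pyruvate dehydrogenase, fell by 0.70 at 2 h and 0.68 at 8 h. In all, 1 rose and 1 fell at 2 h, and 2 rose and 1 fell at 8 h, with list medians of 0.09 and 0.18 against -0.06 and -0.02. In cultured Treg 1 of 11 rose at 2 h, Pdp1, a pyruvate dehydrogenase phosphatase (0.80 ± 0.23, adjusted p = 0.0381), and 0 at 8 and 24 h, with 1 and 4 at an unadjusted p under 0.05. At 72 h, where Slc16a3 was high again, 4 of 11 rose: Ldha (1.15), Pkm (1.10), Pdk1 (1.21) and Pdk3 (1.40), with adjusted p between 0.000562 and 0.0117 and a list median of 0.34 against 0.05. In cultured Tconv 3, 3, 4 and 3 of 11 rose, where 19.5%, 15.7%, 19.4% and 6.65% of all genes did, with list medians of 0.43, 0.34, 0.55 and 0.59 against 0.06, 0.02, 0.23 and 0.15. Without the array that stood apart 1 rose at 2 h (Mpc1, a mitochondrial pyruvate carrier subunit, 1.07 ± 0.25) and 0 later, and Pdha1, a pyruvate dehydrogenase subunit, fell at 8 h by 0.73.

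Of 5 genes of glucose uptake, Hk2, a hexokinase, rose in Treg in vivo at 2 h (2.95 ± 0.34) and 8 h (2.54 ± 0.34) and in cultured Treg at 8, 24 and 72 h (1.16, 1.86 and 1.79), with limma adjusted p of at most 0.0401. Slc2a3, a glucose carrier, fell in Treg in vivo at 2 and 8 h (by 1.04 and 1.30) and in cultured Treg at 2, 8 and 24 h (by 1.03, 1.26 and 0.83). It was higher in Treg than in Tconv at 0 h, by 1.72 ± 0.18 in vivo and 2.33 ± 0.18 in culture (2.13 ± 0.21 without the array that stood apart). In cultured Tconv Slc2a3 fell by 0.56 at 8 h and rose by 1.26 at 72 h, both kept without the array that stood apart (-0.76 and 1.06), while its rise of 0.62 and the fall of Slc2a6, a glucose carrier of inner membranes, by 0.67 at 24 h were not.

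Among 5 other carriers of large neutral amino acids, 2 rose and 1 fell at 2 h and 3 rose and 1 fell at 8 h in Treg in vivo. Slc7a5, the light chain of the LAT1 carrier, rose by 2.56 ± 0.32 at 2 h (limma adjusted p = 7.33e-06) and 2.03 ± 0.32 at 8 h, its heavy chain Slc3a2 by 1.06 ± 0.28 at 8 h, and Slc7a6 by 1.27 and 0.90. Slc43a2 fell by 1.20 and 0.87. The list medians were 0.64 and 0.90, against -0.06 and -0.02 over all genes. In cultured Treg Slc7a5 rose by 1.21 at 24 h, and Slc43a2 fell by 0.91 at 8 h and 0.87 at 24 h. In cultured Tconv 2, 3, 2 and 0 of 5 rose at the 4 times, and without the array that stood apart 3 rose (Slc7a5, Slc3a2 and Slc7a6) and 1 fell (Slc43a2) at 8 h, with 0 called at the other times. For Slc16a10 in Treg in vivo the differences at 2 and 8 h were -0.02 and 0.02.

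Myc, a transcription factor known to act on Slc16a1, rose in Treg in vivo by 3.14 ± 0.45 at 2 h (limma adjusted p = 3.98e-05) and 2.01 ± 0.45 at 8 h (adjusted p = 0.00456), and in cultured Treg by 1.74 at 8 h and 1.91 at 24 h. In cultured Tconv Myc rose by 2.60, 2.24 and 1.51 at 2, 8 and 24 h, and without the array that stood apart at 2 h only (1.31 ± 0.32, adjusted p = 0.0156). Hif1a, the hypoxia factor known to act on Slc16a3, was not called in Treg in either setting. Yet Myc and Hif1a both had an unadjusted limma p under 0.05 in vivo at 2 and 8 h, and in culture at 8, 24 and 72 h. Their medians were then 2.12 and 1.65, and 1.55, 1.65 and 1.29. Of all genes 16.4% and 20.2%, and 19.7%, 25.2% and 23.8%, passed that level. In vivo 0 of the 2 did at 24 and 72 h, and 1 did at 2 h in culture. In cultured Tconv Hif1a rose by 2.23 to 2.75 over the 4 times, and without the array that stood apart only at 8 h (1.29 ± 0.40, adjusted p = 0.0386).

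Other family members showed few calls. Of the 4 tested, Slc16a8, Slc16a9, Slc16a11 and Slc16a13, in cultured Tconv Slc16a8 fell by 0.71 ± 0.22 and Slc16a13 by 0.58 ± 0.20 at 2 h (limma adjusted p = 0.0231 and 0.038), and 0 of 4 were called without the array that stood apart.

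**Figure D5:**
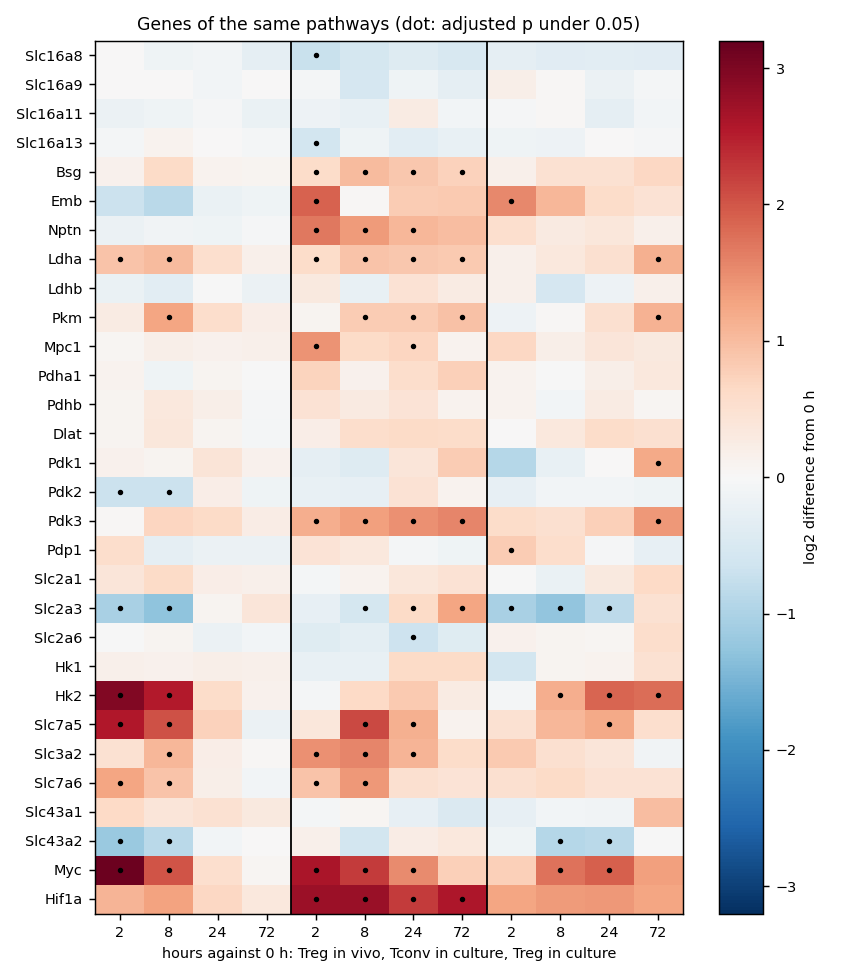
Log2 difference from 0 h (colour) for 30 tested genes of the family, its ancillary proteins and the linked pathways (rows) by hours in Treg in vivo, Tconv in culture and Treg in culture (columns); a dot marks an adjusted p under 0.05. Ldha, Pkm, Pdk1 and Pdk3 have dots at 72 h in cultured Treg.

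The genes whose 22 group means ran most like those of a member were listed by Pearson correlation, as a description over means that share arrays and depend on their scale. For Slc16a1 they were Utp4 (r = 0.95), Utp15 (0.94) and G3bp1 (0.94), and for Slc16a3 Sesn2 (0.86), Gla (0.86) and Gabarapl1 (0.85). Slc16a5 was most like Ggt5 (0.91), Lrrc75b (0.85) and Nckap5l (0.85). Slc16a6 ran with Hdgfl3 (0.93), Nckap1 (0.91) and Mtbp (0.90), and Slc16a10 with N6amt1 (0.78), Ss18l2 (0.74) and Btbd19 (0.72). Among the members themselves r was between -0.56 (Slc16a3 and Slc16a5) and 0.63 (Slc16a3 and Slc16a6).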

How the data were processed

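RNA of sorted CD4+ T cells was amplified and read on Affymetrix ST1.0 arrays. The deposited values are linear intensities of the transcript clusters on each array, from 4.8403 to 29756.3596 with array medians of 87.6 to 116.4. Per the series design text they were made with RMA in GenePattern, and per the submitters' processing notes with Affymetrix Power Tools. Versions: not given in the sources used here. Measured changes of dim genes depend on how background is treated, and an offset of 16 made those of Slc16a5 in Tconv in vivo smaller. Interquartile ranges differed between arrays, so scale differences remained.

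Of 24922 clusters 21425 had 1 symbol (1399 several, 2098 none), and 21347 of these matched by Entrez ID. The cluster of highest mean was kept for each of 19752 symbols. A gene had to exceed the array median on at least 2 arrays, and the 12425 that did were fitted on log2 intensities with limma 3.58.1 (R 4.3.3), 1 mean per group, 20 residual and 5.01 prior degrees of freedom, two-sided eBayes tests and Benjamini-Hochberg adjustment per contrast. Responses were compared by moderated F-tests over 4 times. The number of arrays limits the precision. The fit was tested on simulated data. Tables and plots used Python 3.11.15, numpy 2.4.6, pandas 2.3.3 and matplotlib 3.10.9.

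Members, lists and alternatives were chosen with earlier results of these data known. Named were the members, called genes of the lists, and the 3 genes with the highest correlation to each member. Of 40 list genes 30 were tested, 38 having a named cluster. Scaling was varied by quantile normalization and median centring: the latter raised the all-gene median difference in cultured Tconv by 0.13 to 0.20. Over the 8 culture time comparisons 71.2 to 88.1% of called genes were higher, and 48.9 to 59.3% under quantile normalization.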

Additional observations from a re-analysis of the deposited data

Results flagged for a closer look

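The Slc16a3 response in culture with KT3 differed between Treg and Tconv in limma's moderated F-test of all 4 times. The Treg minus Tconv difference was 2.34 on the log2 scale at 2 h. Effects of KT3 and of culture itself cannot be told apart in it. Slc16a3 also differed between the settings in Treg, where the in vivo response at 2 h differed from that in culture by -2.70. For Slc16a1, also called in that test, the difference was 1.36 at 2 h and -1.17 at 72 h, where that of Slc16a3 was -2.53. The Slc16a1 call was lost under quantile normalization. Within groups of 2 arrays no value was searched for as far from the others, and the 0 h Tconv array in culture that stood apart was found by its range over all genes.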

How the results depend on the processing

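Directions of all called differences were kept under every alternative run. In Treg in vivo 2 calls among the 5 genes became 1 under quantile normalization, 0 with in vivo arrays numbered 1 left out (an alternative added after seeing the data), and 1 to 3 without single arrays. In cultured Treg 8 calls became 5 under quantile normalization, 4 in a separate fit per setting, 13 without array number 1 of unstimulated Tconv, 4 with in vivo arrays numbered 1 left out, and 3 to 9 without single arrays. In cultured Tconv 9 calls became 6 without that array. A fit without in vivo arrays numbered 1 takes its spread from the culture arrays alone, as the separate fit does. At 0 h in culture 1 call became 3 under quantile normalization and 0 with a filter at 6 arrays, under which Slc16a5 was not tested, and was 1 to 3 without single arrays. The cell type difference in culture went from 1 call to 2 without that Tconv array, to 2 without the 3 culture arrays of narrowest range (also added later), and was 1 to 2 without single arrays. The setting difference in Treg went from 2 calls to 1 under quantile normalization and to 1 with in vivo arrays numbered 1 left out, and was 1 to 2 without single arrays. An offset of 16 before log2 moved Slc16a5 in Tconv in vivo at 72 h from -2.60 to -2.24. Without single arrays, Slc16a6 in Tconv in vivo ranged from -0.05 to 0.46 at 2 h and from -0.39 to 0.17 at 72 h, turning sign. The cause was not tested.

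In culture the array number goes with the sex and age of the mice, a factor that same-numbered arrays share, and in vivo most arrays numbered 1 were labelled single sorted and most numbered 2 double sorted. Over 45 pairs of groups the deviations of same-numbered arrays correlated at -0.17 to 0.78 in vivo (32 over 0.1) and -0.45 to 0.71 in culture (28 over 0.1). A replicate block by number added calls for Slc16a3 in Treg in vivo at 8 h (0.94, limma adjusted p = 0.0352) and in cultured Tconv at 72 h (1.02, 0.0266), Slc16a1 in cultured Treg at 24 h (1.17, 0.0398) and Slc16a5 in cultured Treg at 8 h (-0.80, 0.0471), and lost none. Each gene has 1 cluster, so another cluster could not be tried.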
